A study of Mus musculus with 12 samples.

Results

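A set of 10 genes whose proteins dampen, or set the threshold of, signals from the T cell receptor were followed in mouse thymocytes with and without Satb1. They were taken by name from the 49997 genes of both count tables, and all 10 were found and passed the low-count filter in every comparison: the tyrosine phosphatase genes Ptpn22, Ptpn6, Ptpn2 and Ptprc, the kinase gene Csk and its adaptor gene Pag1, the ubiquitin ligase genes Cbl and Cblb, Ubash3a, and the adaptor gene Sh2d2a. Csk encodes a kinase, and Pag1 and Sh2d2a encode adaptors, so the set is wider than phosphatases and ligases. Poly(A) RNA was sequenced from DP (CD4 and CD8 double-positive) and CD4 thymocytes of 2 genotypes, WT and Satb1 KO, with 3 libraries in each of the 4 groups: DP WT, DP KO, CD4 WT and CD4 KO. All 12 libraries carry the treatment label Tamoxifen, the WT ones included, since the deletion was induced with that drug. The sources used here do not give the Cre driver, the deleted exons, the interval after treatment, the strain or the age of the mice. Nothing in the labels says that the libraries of a group came from different mice, so p-values measure the spread between these libraries. That spread may be technical, at least in part, although the DP WT libraries differed in Xist, as given below.

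As background, a thymocyte reads the quality of its receptor's contact with self peptides through the Src family kinases LCK and FYN and then ZAP70. CSK places an inhibitory phosphate on LCK and FYN, and the receptor phosphatase CD45 takes it off. PTPN22, PTPN6 and PTPN2 remove activating phosphates, and CBL and CBLB attach ubiquitin to active receptors and kinases so that they are internalised or degraded. In the thymus these proteins help set which DP cells are signalled enough to survive and mature. SATB1 is a chromatin organiser that is abundant in DP thymocytes.

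Total counts ran from 22790504 to 62422640 reads per library, and 3 counts, taken as the limit of detection, equalled between 0.0464 and 0.134 CPM (read counts scaled to one common library total with TMM factors), a limit that covers counting error only. Satb1 itself had 3888, 3832 and 3872 CPM in DP WT and 2495, 2873 and 2455 CPM in DP KO. It had 3513, 3299 and 3000 CPM in CD4 WT and 1481, 1545 and 1469 CPM in CD4 KO, so the targeted gene was lower in every KO library but its reads remained at both stages (log2 fold change −0.56 ± 0.08 (SE) in DP, edgeR adjusted p = 0.000539, and −1.12 ± 0.08 in CD4, adjusted p = 7.89e-06). Markers of the sorted types held apart: Zbtb7b, the CD4 lineage factor, lay at 389, 413 and 355 CPM in CD4 WT and between 2.41 and 5.32 CPM in DP WT. Summed markers of the labelled type were lower in the KO libraries of both types. The DP marker Aqp11, however, was at 200 to 233 CPM in DP KO and 179 to 210 CPM in DP WT. The CD4 markers Klf2, Itgb7 and S1pr1 overlapped between CD4 KO and CD4 WT. The summed level of 9 DP markers was 12431 to 13639 CPM in DP WT and 6881 to 7163 CPM in DP KO, and in CD4 KO Zbtb7b was only 20.0 to 41.5 CPM while the sum of 8 CD4 markers was 1703 to 1808 CPM against 3082 to 3204 CPM in CD4 WT. The DP markers, in contrast, summed to 2511 to 3024 CPM in CD4 KO and 1499 to 1924 CPM in CD4 WT, with the recombinase gene Rag1 at a mean of 743 and 200.1 CPM. Only Cd4, which is on both marker lists, went the other way. Its mean was 656.6 CPM in CD4 KO and 1110 CPM in CD4 WT. The levels of 4 regulatory T cell markers summed to 90.9 to 125 CPM in DP WT, 497 to 597 in DP KO, 191 to 242 in CD4 WT and 617 to 726 in CD4 KO, while their defining factor Foxp3 was at 0.854 to 1.32 CPM in DP KO. In DP, Il2ra made up most of the rise, with means of 12.46 CPM in WT and 406.5 in KO. Ikzf2 (91.59 and 128.9) and Ctla4 (2.176 and 9.517) added less. In CD4, Ikzf2 (means of 123.9 CPM in WT and 372.5 in KO) and Il2ra (35.18 and 238.8) were higher in KO. Foxp3 (24.85 to 30.2 CPM in CD4 WT and 25.83 to 44.11 in CD4 KO) and Ctla4 (20.65 to 43.02 and 19.33 to 65.03) overlapped. The part of these shifts in the results below was not tested, and in such bulk samples fewer cells of a type and less RNA per cell cannot be told apart. Xist was at 0.845 and 0.273 CPM in DP WT replicates 1 and 2 and at 190 to 601 CPM in the other 10 libraries, while the Y-linked Ddx3y was at 40.3 to 127 CPM in all 12, so values of the members are also given without them. DP WT replicate 3, with 475.6 CPM of Xist, was thus not a repeat of the RNA sample of replicate 1 or 2. Within DP KO, Zbtb7b was at 7.13 CPM in replicate 2 against 1.00 and 0.254 CPM in replicates 1 and 3, whereas Klf2 was highest in replicate 3 (92.4 CPM against 23.3 and 32.4), and the sums of the 8 CD4 markers were 1306, 1373 and 1388 CPM in replicates 1, 2 and 3.

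Promoter sequences are shown for Ptpn6 and Csk, because both transcripts were lower in CD4 KO but they moved in opposite directions in DP KO, and because these are the members whose gene model begins at a start of the promoter table. The RefSeq table (GRCm38.p6, the mm10 assembly) held 10 windows for 7 members, and the 250 bases before the start are printed 5′ to 3′ on the strand of the gene, which is the minus strand for both. Capitals mark the E box CAGNTG and the GC box GGGCGG on either strand. The window of Ptpn6 is chr6:124738710-124738959 and that of Csk is chr9:57653632-57653881.
Ptpn6: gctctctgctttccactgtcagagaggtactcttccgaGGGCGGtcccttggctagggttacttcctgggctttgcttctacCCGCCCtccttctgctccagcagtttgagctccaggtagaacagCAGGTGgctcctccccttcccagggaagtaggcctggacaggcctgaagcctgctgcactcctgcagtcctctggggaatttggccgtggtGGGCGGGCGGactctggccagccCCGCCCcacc
Csk: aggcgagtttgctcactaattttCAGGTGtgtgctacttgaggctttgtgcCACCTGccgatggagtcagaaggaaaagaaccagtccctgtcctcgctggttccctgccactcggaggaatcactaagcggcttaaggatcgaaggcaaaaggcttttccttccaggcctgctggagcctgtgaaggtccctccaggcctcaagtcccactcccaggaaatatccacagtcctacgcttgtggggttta
The Ptpn6 window held 5 GC boxes, 2 of which overlap, and 1 E box, and 36.8% of its bases were A or T. The Csk window printed here held 2 E boxes and no GC box, and 46.0% A or T. Another Csk window, at chr9:57645654-57645903, held no E box and no GC box, and 36.0% A or T. Which start these cells use was not tested for either gene. Among all 32851 windows of the table the median A or T share was 47.6%, 44.8% held an E box and 32.7% held a GC box. Further motifs were searched on both strands, the ETS motif CCGGAAG (in 6.91% of all windows), the RUNX motif TGTGGT (14%), the TCF1 and LEF1 motif CTTTGA (13.8%) and TATAAA (12.4%). None of these was in either printed window. The motifs were chosen with results known, and these matches describe letters only, not sites that a factor uses.

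In WT cells, 7 members were higher in CD4 than in DP thymocytes and Cbl was lower, while Ptpn22 and Pag1 did not pass the test. The step was largest for the 2 CBL genes, which went opposite ways: Cblb was 3.10-fold higher in CD4 WT and Cbl 2.22-fold lower. Of all 17369 genes tested, 28% were called higher and 27.1% lower at an adjusted p under 0.05, so the 7 of 10 called higher compare with 28% and the 1 of 10 called lower with 27.1%. The median log2 fold change of the members was 0.77, beside 0.00 over all genes tested. DP and CD4 libraries come from separate tables, so the stage and the table cannot be told apart. In DP KO against DP WT, 3 members were higher (Ptpn22, Ptpn2 and Csk), 4 were lower (Ptpn6, Cbl, Ubash3a and Sh2d2a) and Ptprc, Cblb and Pag1 were not called, against a background of 16.7% of 16776 genes higher and 14.1% lower, with a member median of −0.05 beside 0.01 over all genes. In CD4 KO against CD4 WT all 10 were called, 8 lower and 2 (Ptpn22 and Cbl) higher, where 20.9% of 17316 genes were higher and 18.6% lower, and the member median was −0.44 beside 0.00. The difference between the KO effects (the effect in CD4 with the DP one subtracted) was called for 6 members, Cbl above 0 and Ptprc, Ptpn2, Ubash3a, Csk and Pag1 below, beside 14.4% of 18431 genes above 0 and 13.4% below. The stage comparison shares its WT libraries with both KO comparisons, so their values are set side by side only.

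Without DP WT replicates 1 and 2, the same 8 members were called between WT stages, with log2 differences of 1.09 for Ptpn6, 0.57 for Ptprc, 0.99 for Ptpn2, 1.41 for Cblb, −1.25 for Cbl, 0.95 for Ubash3a, 0.70 for Sh2d2a and 1.00 for Csk, and Ptpn22 (−0.08) and Pag1 (−0.22) were not called. The KO effects then differed between the stages by −0.41 for Ptprc, −0.87 for Ptpn2, 0.88 for Cbl, −0.51 for Ubash3a and −0.89 for Csk, all called, and by 0.33 for Ptpn22, −0.30 for Ptpn6, −0.09 for Cblb, −0.17 for Sh2d2a and −0.16 for Pag1, none called.

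**Figure D1:**
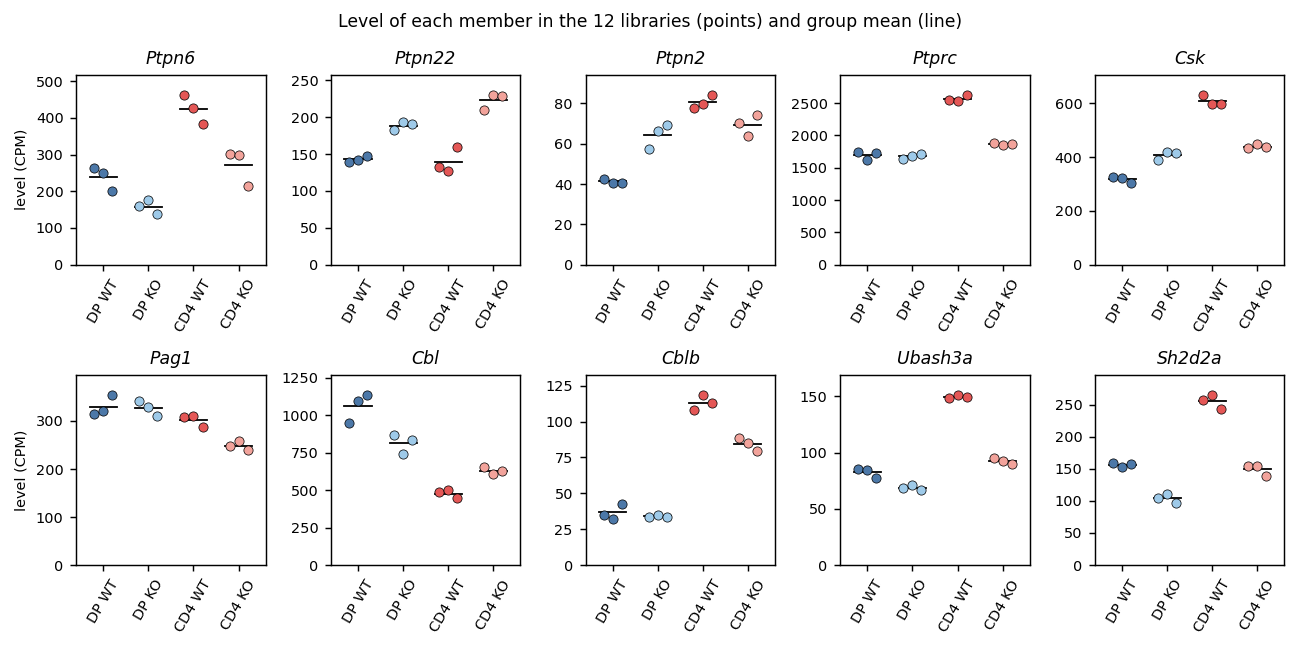
Level of each of the 10 members in CPM (vertical axis, starting at 0) in the 12 libraries, with the 3 points of a group in replicate order and a line at the group mean. Csk and Ptpn2 rise from DP WT to DP KO and fall from CD4 WT to CD4 KO, and Cbl does the reverse.

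Ptprc encodes CD45, an abundant receptor phosphatase that takes the inhibitory phosphate from LCK and so also promotes signalling. Its level was 1740, 1623 and 1727 CPM in DP WT and 1643, 1687 and 1719 CPM in DP KO. These ranges overlapped, and the log2 fold change was −0.00 ± 0.06 (SE; adjusted p = 0.996 by edgeR's quasi-likelihood test with Benjamini-Hochberg adjustment, as for every adjusted p below unless another test is named), and without DP WT replicates 1 and 2 it was −0.04 (adjusted p = 0.862). CD4 WT had 2544, 2529 and 2627 CPM and CD4 KO 1885, 1851 and 1874 CPM. Every CD4 WT library thus lay above every other library, and CD4 KO lay above both DP groups. Ptprc was 1.51-fold higher in CD4 WT than in DP WT (log2 0.59 ± 0.06, adjusted p = 2.48e-05) and 1.37-fold lower in CD4 KO than in CD4 WT (log2 −0.46 ± 0.06, adjusted p = 0.000438). The KO effect differed between the stages by −0.44 ± 0.08 (adjusted p = 0.000674). Gene counts do not separate the CD45 isoforms.

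Ptpn6 encodes SHP-1, a cytoplasmic phosphatase that binds inhibitory receptors through its SH2 domains. Its libraries had 263, 250 and 200 CPM in DP WT (replicates 1, 2 and 3) and 161, 177 and 137 CPM in DP KO. In CD4 they had 462, 428 and 384 CPM in WT and 301, 299 and 215 CPM in KO. WT and KO did not overlap at either stage, and CD4 KO overlapped DP WT. Ptpn6 fell in both KO groups, by 0.58 ± 0.12 (SE) on the log2 scale in DP (adjusted p = 0.00614) and by 0.64 ± 0.13 in CD4 (adjusted p = 0.00361), and the difference between these effects was −0.06 ± 0.20 (adjusted p = 0.869). In WT cells it was 1.78-fold higher in CD4 (adjusted p = 0.0001). Replicate 3 was the lowest library of each group, and it also had the lowest summed level of 8 myeloid markers in each group: 12.9 against up to 19.1 CPM in DP WT, 9.10 against up to 12.9 in DP KO, 13.7 against up to 37.7 in CD4 WT and 11.0 against up to 42.0 in CD4 KO. None of these 8 markers was at 0 throughout a group. The sum hides Itgam, which was highest in replicate 3 of both DP groups. It was at 8.54, 7.932 and 9.235 CPM in DP WT and 7.061, 6.724 and 7.503 CPM in DP KO. In both CD4 groups Itgam was lowest in replicate 3. Replicate 3 also had the lowest total count of each group. The pattern was not only myeloid, as summed B cell markers and summed erythroid markers were lowest in replicate 3 of each group too. Myeloid cells also express Ptpn6, and the part of any of these cell types in its spread was not tested. Without DP WT replicates 1 and 2 the DP difference was −0.34 (adjusted p = 0.209), and the lone control is then assumed to vary like the KO group.

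Ptpn22 encodes a phosphatase that works with CSK and removes activating phosphates from LCK and ZAP70. It was the member that rose in both KO groups. DP WT had 139, 142 and 148 CPM and DP KO 182, 194 and 190.3 CPM. CD4 WT had 132, 127 and 160 CPM, overlapping DP WT, and CD4 KO had the highest levels, 210.3, 230.2 and 228 CPM. The rise was 1.33-fold in DP (log2 0.41 ± 0.06, adjusted p = 0.00114) and 1.60-fold in CD4 (log2 0.68 ± 0.09, adjusted p = 0.000363), and the WT stages differed by −0.04 ± 0.09 (adjusted p = 0.746). The larger rise in CD4 was not called as a difference (0.27 ± 0.11, adjusted p = 0.0921), but it was with the batch number as a block (0.28, adjusted p = 0.0402) and without CD4 WT replicate 3 (0.35, adjusted p = 0.0134). Without DP WT replicates 1 and 2 the DP rise was 0.35 (adjusted p = 0.0904). The table lists further exons of Ptpn22 on an alternate sequence of chromosome 3, so reads that match both copies may have been lost and its level is uncertain.

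Ptpn2 encodes TC-PTP, which acts on LCK and on the cytokine receptor kinases JAK1 and JAK3. Its level was 42.7, 40.6 and 40.6 CPM in DP WT and 57.1, 66.1 and 69.3 CPM in DP KO. It was 77.7, 79.6 and 84.2 CPM in CD4 WT and 70.1, 63.7 and 74.1 CPM in CD4 KO. The KO groups of both stages overlapped each other and lay between the WT groups. Ptpn2 was 1.94-fold higher in CD4 WT than in DP WT (adjusted p = 1.17e-06) and rose 1.57-fold in DP KO (log2 0.65 ± 0.09, adjusted p = 0.000498), a rise still called without DP WT replicates 1 and 2 (0.66, adjusted p = 0.0331). In CD4 KO it fell by 0.21 ± 0.07 on the log2 scale (adjusted p = 0.042). That call is fragile: it was lost without CD4 KO replicate 1 (−0.21, adjusted p = 0.108), CD4 KO replicate 2 (−0.14, 0.178), CD4 WT replicate 1 (−0.24, 0.0648), CD4 WT replicate 2 (−0.22, 0.0887) or CD4 WT replicate 3 (−0.18, 0.11), and with no low-count filter (−0.20, 0.0765). The difference between the effects was −0.85 ± 0.11 (adjusted p = 0.0001).

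Csk, whose kinase product holds LCK and FYN inactive, had the smallest adjusted p of the members for the difference between the KO effects. DP WT had 328, 323 and 304 CPM and DP KO 390.5, 419 and 416 CPM. CD4 WT had 631, 596 and 596 CPM and CD4 KO 432, 449 and 436 CPM. No groups overlapped, and their order was DP WT, DP KO, CD4 KO, CD4 WT. Csk was 1.91-fold higher in CD4 WT than in DP WT (adjusted p = 9.08e-07), rose 1.29-fold in DP KO (log2 0.37 ± 0.07, adjusted p = 0.00241) and was 1.38-fold lower in CD4 KO (log2 −0.47 ± 0.06, adjusted p = 0.00031). The effects differed by −0.83 ± 0.08 (adjusted p = 8.11e-06). Without DP WT replicates 1 and 2 the DP rise was 0.43 (adjusted p = 0.0537).

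Pag1 encodes a membrane adaptor that docks CSK beside its substrates. It had 314, 320.3 and 354 CPM in DP WT and 341, 329 and 310.3 CPM in DP KO, with overlapping ranges (log2 0.00 ± 0.08, adjusted p = 0.997, and −0.11, adjusted p = 0.572, without DP WT replicates 1 and 2). CD4 WT had 308, 311 and 287 CPM, below every DP WT library, yet the stage difference was not called (−0.13 ± 0.07, adjusted p = 0.156). CD4 KO was lowest, at 248, 258 and 239 CPM (log2 −0.28 ± 0.06 against CD4 WT, adjusted p = 0.00713). Its KO effect differed between the stages by −0.27 ± 0.09 (adjusted p = 0.0462), and this call was lost when most single libraries were left out: DP KO replicate 1 (−0.26, adjusted p = 0.091), DP KO replicate 2 (−0.30, 0.061), DP WT replicate 1 (−0.26, 0.0843), DP WT replicate 2 (−0.28, 0.0816), CD4 KO replicate 1 (−0.30, 0.068), CD4 KO replicate 3 (−0.28, 0.069), CD4 WT replicate 1 (−0.24, 0.11) or CD4 WT replicate 2 (−0.28, 0.0807). It was lost too with DESeq2 size factors (−0.27, adjusted p = 0.0519) and without DP WT replicates 1 and 2 (−0.16, 0.389).

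**Figure D2:**
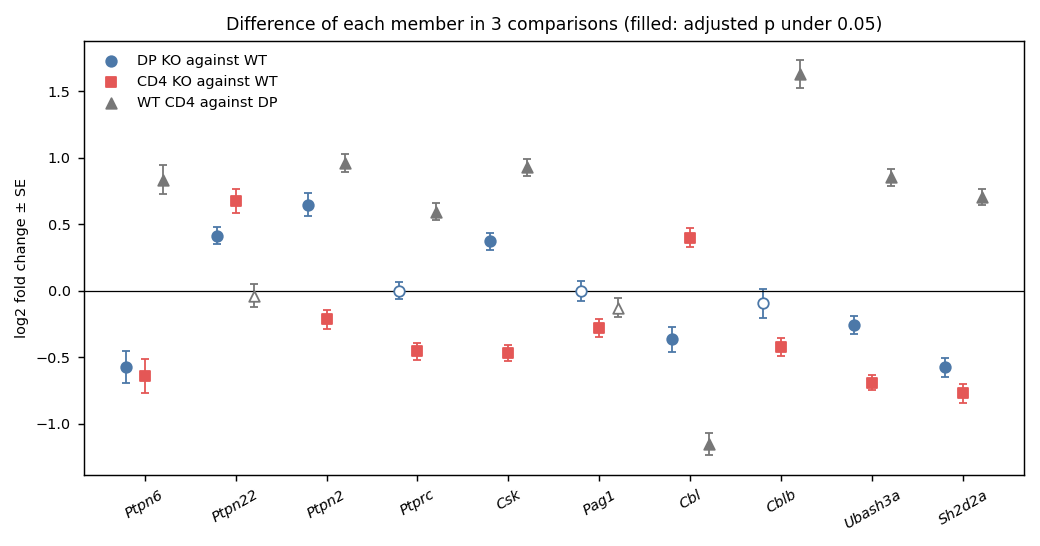
Log2 fold change with its standard error (vertical axis) of each member in DP KO against WT, CD4 KO against WT, and WT CD4 against WT DP. Filled symbols passed an adjusted p under 0.05, and the 3 open circles are Ptprc, Pag1 and Cblb in DP. The 2 KO symbols lie on opposite sides of 0 for Ptpn2, Csk and Cbl.

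Cbl and Cblb encode related ubiquitin ligases. CBL is known for its action in thymocytes and CBLB for its action in mature T cells. Cbl had 948, 1096 and 1134 CPM in DP WT and 870, 739 and 838 CPM in DP KO. It had 486, 499.8 and 446 CPM in CD4 WT and 651, 605 and 628 CPM in CD4 KO. No groups overlapped, and the order, from CD4 WT through CD4 KO and DP KO to DP WT, was the reverse of that of Csk. Cbl was 1.29-fold lower in DP KO (log2 −0.37 ± 0.09, adjusted p = 0.0148) and 1.32-fold higher in CD4 KO (log2 0.40 ± 0.07, adjusted p = 0.00162), with a difference of 0.77 ± 0.12 between the effects (adjusted p = 0.000247). The DP call was lost without DP KO replicate 2 (−0.28, adjusted p = 0.0531), without DP WT replicate 2 (−0.36, 0.0562) and without DP WT replicates 1 and 2 (−0.47, 0.0616).

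Cblb had 35.0, 32.3 and 42.6 CPM in DP WT and 33.4, 34.8 and 33.8 CPM in DP KO, where the ranges overlapped (log2 −0.09 ± 0.11, adjusted p = 0.558, and −0.33, adjusted p = 0.134, without DP WT replicates 1 and 2). CD4 WT had 108, 118 and 113 CPM and CD4 KO 88.7, 85.3 and 79.5 CPM. The CD4 groups did not overlap, and both lay above every DP library. Cblb was 1.34-fold lower in CD4 KO (log2 −0.42 ± 0.07, adjusted p = 0.00092). The difference between the KO effects was not called (−0.32 ± 0.13, adjusted p = 0.0768), although it was without DP WT replicate 3 (−0.47, adjusted p = 0.00338) and with limma-voom (−0.36, adjusted p = 0.0383). Per length of their annotated exons, the ratio of Cbl to Cblb was 23.6 ± 3.30 (SD, n = 3) in DP WT, 19.4 ± 2.02 in DP KO, 3.41 ± 0.22 in CD4 WT and 6.03 ± 0.34 in CD4 KO. Cbl was thus the more abundant transcript in every library, and the ratio of every CD4 KO library was above that of every CD4 WT library.

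**Figure D3:**
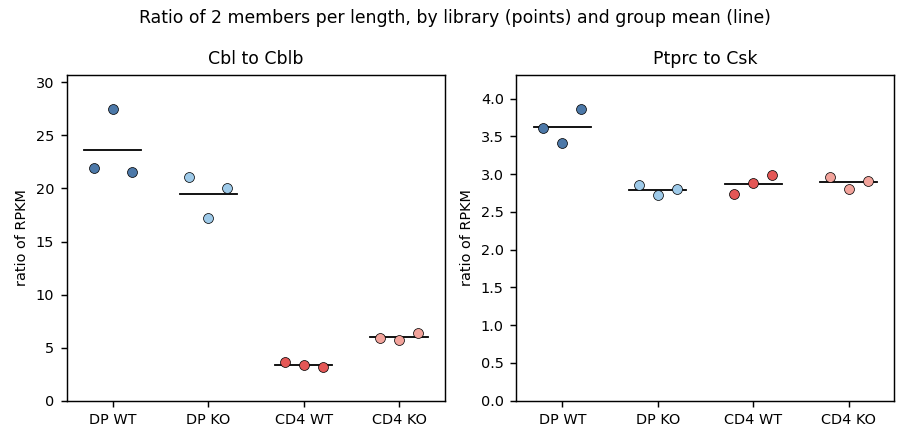
Ratio of the level per length (RPKM) of Cbl to Cblb and of Ptprc to Csk in each library, with a line at the group mean and axes starting at 0. The Cbl to Cblb ratio lies between 17.2 and 27.4 in DP libraries and between 3.18 and 6.40 in CD4 libraries, and the Ptprc to Csk ratio of DP WT lies above the other 3 groups.

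Ubash3a encodes a ubiquitin-binding protein that damps T cell receptor signals and binds CBL. It had 85.8, 84.8 and 77.7 CPM in DP WT and 68.5, 70.9 and 66.6 CPM in DP KO. It had 149, 151 and 149.9 CPM in CD4 WT and 95.5, 92.5 and 89.7 CPM in CD4 KO. No groups overlapped. Ubash3a was 1.81-fold higher in CD4 WT than in DP WT (adjusted p = 1.81e-06) and 1.62-fold lower in CD4 KO (log2 −0.69 ± 0.06, adjusted p = 1.8e-05), and the effects differed by −0.43 ± 0.08 (adjusted p = 0.00146). The smaller fall in DP KO, 0.26 ± 0.07 on the log2 scale (adjusted p = 0.0218), was lost without DP KO replicate 1 (−0.25, adjusted p = 0.0839), DP KO replicate 2 (−0.27, 0.0507), DP KO replicate 3 (−0.22, 0.0508), DP WT replicate 1 (−0.24, 0.0725), DP WT replicate 2 (−0.26, 0.0777) or DP WT replicates 1 and 2 (−0.18, 0.361), and with no low-count filter (−0.215, 0.116). Exons of Ubash3a share 129 bases with the opposite-strand gene Rsph1, which never exceeded 45 counts.

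Sh2d2a encodes TSAd, an adaptor that binds LCK. It had 158, 153 and 157 CPM in DP WT and 105, 110.3 and 96.3 CPM in DP KO. It had 258, 265 and 243 CPM in CD4 WT and 155, 155 and 138 CPM in CD4 KO, the last overlapping DP WT. Sh2d2a fell at both stages, by 0.58 ± 0.07 on the log2 scale in DP (adjusted p = 0.000319, and −0.60, adjusted p = 0.0209, without DP WT replicates 1 and 2) and by 0.77 ± 0.07 in CD4 (adjusted p = 3.34e-05), and it was 1.63-fold higher in CD4 WT than in DP WT (adjusted p = 6.38e-06). The difference between the KO effects was −0.18 ± 0.10 (adjusted p = 0.181), and it was called without DP KO replicate 3 (−0.27, adjusted p = 0.0475).

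Between genes, levels were compared per length in RPKM (CPM divided by the kilobases of annotated exons). Ptprc was the highest member in every group, from 286 ± 6.56 RPKM (SD, n = 3) in DP KO to 437 ± 8.98 in CD4 WT. In DP WT, Ptpn6 (90.5 ± 12.7), Cbl (89.5 ± 8.33) and Csk (79.8 ± 3.16) followed within each other's spread, and Cblb was the lowest at 3.82 ± 0.56. In CD4 WT, Ptpn6 (162 ± 15.1) and Csk (152 ± 5.04) were next and Cbl had dropped behind Sh2d2a, at 40.3 ± 2.38 against 53.1 ± 2.36. In DP KO, Csk was next, at 102 ± 3.98 RPKM. In CD4 KO, Csk (110.1 ± 2.20) and Ptpn6 (103 ± 18.8) were within the spread of each other, and Ptpn6 was above Csk in replicates 1 and 2 and below it in replicate 3. Pag1 had 5.21 to 6.91 RPKM, low beside its CPM because 47659 bases are annotated as its exons. CD45 and CSK act on the same inhibitory tyrosine of LCK, and the ratio of Ptprc to Csk was 3.62 ± 0.23 in DP WT, 2.80 ± 0.06 in DP KO, 2.87 ± 0.13 in CD4 WT and 2.89 ± 0.08 in CD4 KO, so that each DP WT library lay above the other 9. Csk to Pag1 was 11.6 ± 1.17, 15.0 ± 1.20, 24.1 ± 1.01 and 21.1 ± 0.59 in the same order of groups.

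**Figure D4:**
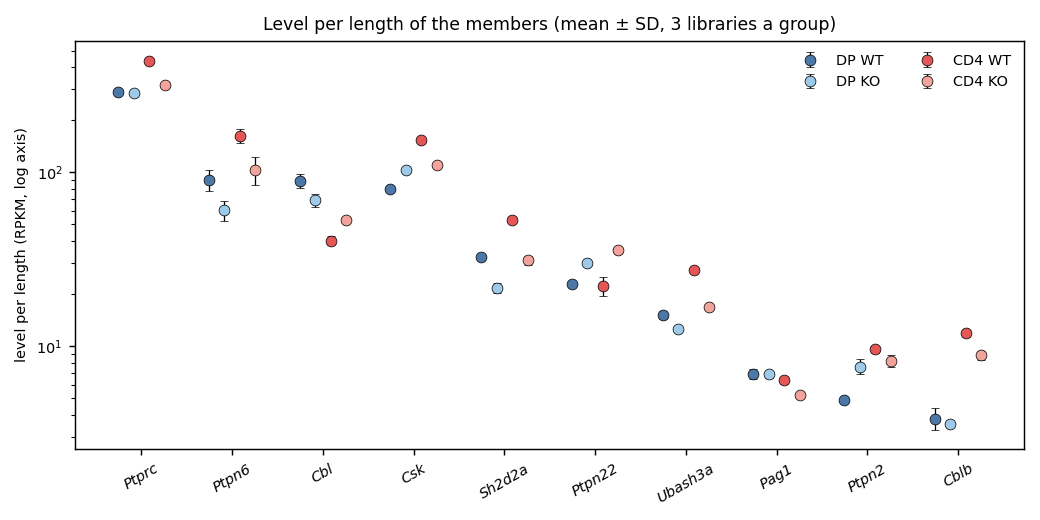
Mean level per length (RPKM, log axis) with its SD over 3 libraries of the members in the 4 groups, ordered by DP WT. Ptprc stands highest in all groups, and the Cblb points of CD4 lie above those of DP.

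Among 20 genes listed as substrates and partners of the members, more were called lower than higher in both KO groups. They are receptor chains, kinases, adaptors and other signalling genes, and whether each is a target of a member was not tested. Of these 20, 10 were lower and 3 higher in DP KO, and 15 were lower and 2 higher in CD4 KO, beside the background shares above. Their median log2 fold change was −0.23 in DP and −0.31 in CD4, beside 0.01 and 0.00 over all genes tested. In DP KO the smallest adjusted p-values were those of the receptor chain genes Cd3d (−0.86 ± 0.09, adjusted p = 8.24e-05) and Cd247 (−0.63 ± 0.07, 0.000123) and the kinase gene Tec (−0.77 ± 0.11, 0.000575). In CD4 KO, the smallest included those of Fyn (−0.95 ± 0.06, adjusted p = 6.35e-06) and the phospholipase gene Plcg1 (−0.72 ± 0.06, 1.85e-05). Fyn, a kinase that CSK restrains, had a KO effect in CD4 that differed from that in DP by −1.20 ± 0.09 (adjusted p = 1.39e-06), with 606 ± 12.5 CPM in CD4 WT and 312 ± 12.9 CPM in CD4 KO. Tec (1.59 ± 0.14) and Syk (1.63 ± 0.16) differed the other way. In WT cells 9 of the 20 were higher in CD4 and 4 lower, with a median of 0.17, led by Fyn (2.09), Jak3 (2.78) and Syk (−2.28). Without DP WT replicates 1 and 2, 3 of the 20 were lower and 0 higher in DP KO, where the number of all genes called fell from 5167 to 1907.

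Other brakes were called in both directions. Over all genes tested, 16.7% were higher and 14.1% lower in DP KO, and 20.9% and 18.6% in CD4 KO. Between WT stages 28% were higher in CD4 and 27.1% lower. Among 23 tested genes of other phosphatases, 7 were higher and 5 lower in DP KO, led by the MAP kinase phosphatase gene Dusp4 (−2.69 ± 0.20, adjusted p = 1.31e-05), Ptpn9 (1.45 ± 0.13) and Ptprk (−1.84 ± 0.19). Among 24 in CD4 KO, 8 were higher and 5 lower, led by Dusp6 (−1.43 ± 0.08), Ptprj (1.76 ± 0.14) and Ptpn12 (−1.11 ± 0.09). Dusp4, which acts on MAP kinases, had 25.9 ± 1.08 CPM in DP WT, 4.03 ± 1.21 in DP KO, 29.4 ± 3.99 in CD4 WT and 45.4 ± 4.94 in CD4 KO, and its KO effects differed by 3.33 ± 0.25 (adjusted p = 8.62e-07). In WT cells 11 of 23 phosphatases were higher in CD4 and 4 lower, led by Ptpn12 (1.16), Ptprk (−2.85) and Dusp22 (2.02). The median log2 fold change of these phosphatases was 0.14 in DP KO, −0.03 in CD4 KO and 0.18 between WT stages.

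Of 17 genes tested in DP on the list of other ligases, which also holds Ubash3b, 4 were higher and 3 lower in DP KO, led by Dtx1 (2.09 ± 0.26, adjusted p = 0.000297), a Notch pathway gene, Traf2 (−0.43 ± 0.06) and Ubash3b (1.03 ± 0.18). Of 18 in CD4 KO, 4 were higher and 4 lower, led by Traf3 (−1.07 ± 0.08), Nedd4l (0.72 ± 0.07) and Nedd4 (0.45 ± 0.06). The shares of this list in CD4 KO, 22.22% each way, were near those of all genes, 20.9% higher and 18.6% lower. In DP KO they were 23.53% higher and 17.65% lower, beside 16.7% and 14.1% of all genes. Ubash3b, the paralogue of Ubash3a, was at 2.95 ± 0.48 CPM in DP WT, 5.97 ± 0.45 in DP KO, 40.5 ± 3.85 in CD4 WT and 45.5 ± 5.20 in CD4 KO. It was higher in CD4 WT by 3.77 ± 0.14 on the log2 scale, beside 0.85 for Ubash3a. In WT cells 7 of 18 on the list were higher in CD4 and 8 lower, and its medians were −0.03 in DP KO, −0.02 in CD4 KO and −0.095 between WT stages.

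Of 19 inhibitory adaptors and receptors, 3 were higher and 6 lower in DP KO, and 6 were higher and 6 lower in CD4 KO. The receptors Cd6 (−1.46 ± 0.07 in DP and −1.73 ± 0.08 in CD4) and Cd5 (−2.05 ± 0.14 and −2.05 ± 0.15), which dampen receptor signals, fell at both stages. Lax1 rose at both (1.13 ± 0.10 in DP and 0.60 ± 0.06 in CD4), and Grap fell at both (−0.40 ± 0.06 and −0.94 ± 0.07). In WT cells 8 of 19 were higher in CD4 and 5 lower, with the cytokine-induced inhibitor gene Cish at 4.98 and Sla and Sh2d1a at −1.41 each. The medians of this list were −0.26 in DP KO, 0.13 in CD4 KO and 0.41 between WT stages. Of 21 phosphatases of inositol lipids and brakes on RAS, 5 were higher and 4 lower in DP KO, including Inpp5d (0.68 ± 0.07) and Rasa3 (0.89 ± 0.09). In CD4 KO 2 of these 21 were higher and 8 lower, led by Inpp4b (542 ± 24.4 CPM in WT and 68.2 ± 5.12 in KO), Rasal1 (−1.60 ± 0.11) and Rasal3 (−0.66 ± 0.07), and in WT cells 13 were higher in CD4 and 2 lower. Their medians were −0.01, −0.18 and 0.44 in the same order.

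The KO effect was called lower in CD4 than in DP for 8 and higher for 3 of the 20 substrates and partners, and for 5 and 4 of 24 other phosphatases. It was called lower for 5 and higher for 4 of 18 other ligases, and for 5 and 4 of 19 inhibitory adaptors and receptors. Of 21 lipid and RAS brakes it was called lower for 8 and higher for 3. Over all 18431 genes tested, 13.4% were called lower and 14.4% higher. Without DP WT replicates 1 and 2, when 1089 of 17962 genes were called higher and 818 lower in DP KO, the counts there were 2 higher and 4 lower for other phosphatases, 2 and 1 for other ligases, 3 and 3 for inhibitory adaptors and receptors and 4 and 2 for lipid and RAS brakes. Between WT stages, where 3628 of 18385 genes were then higher and 3114 lower, the counts were 9 higher and 3 lower for substrates and partners, 8 and 2 for other phosphatases, 5 and 6 for other ligases, 9 and 5 for inhibitory adaptors and receptors and 9 and 1 for lipid and RAS brakes.

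**Figure D5:**
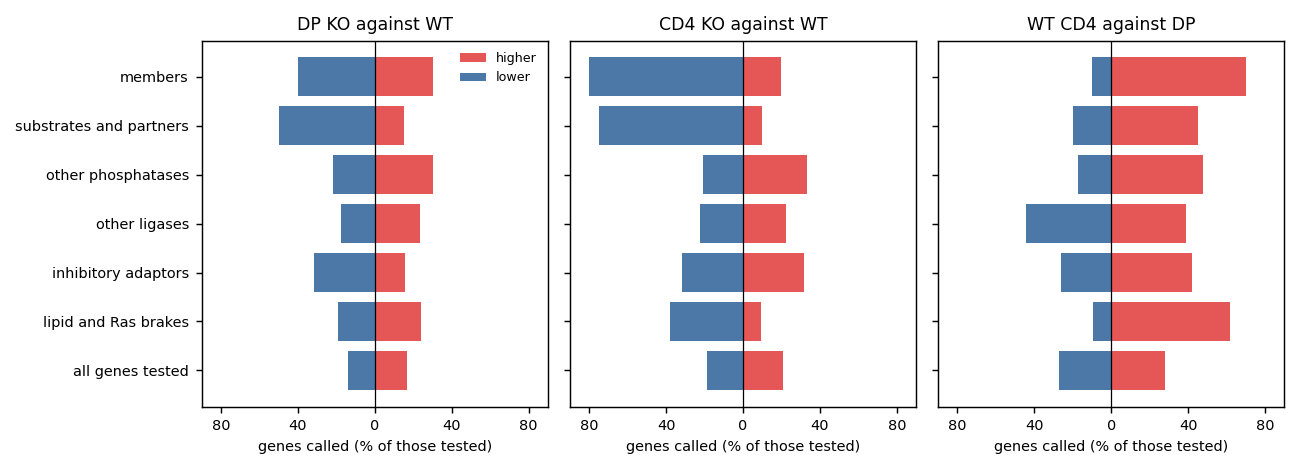
Share of tested genes called higher (right of 0) and lower (left of 0), in percent, for the members, the 5 related lists and all genes tested, in 3 comparisons. In CD4 KO the members and their substrates and partners have the longest bars to the left.

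For the 3 members with the widest range of group means, the genes with the most similar profile over the 12 libraries were found among 13849 genes, by the root-mean-square difference of centred log2 CPM. Nearest to Cblb were Atp2a1 (0.13), Hectd2 (0.14) and Gramd4 (0.16), and Gramd4 had 34.7, 33.4, 122 and 93.1 CPM in DP WT, DP KO, CD4 WT and CD4 KO. Plekhg2 (0.13), Chrnb2 (0.14) and P4ha1 (0.15) were nearest to Ptpn6. For Sh2d2a they were Tnip1 (0.067), Plekhg2 (0.073) and Baiap2 (0.092), and Tnip1 had 92.8, 65.4, 153 and 85.5 CPM in the same groups.

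Of the members, 5 share a chromosome with another: Ptpn22 (chr3:103856575-103912252, plus strand), Sh2d2a (chr3:87846755-87855722, plus) and Pag1 (chr3:9687479-9833684, minus) on chromosome 3, and Cbl (chr9:44142976-44234259, minus) and Csk (chr9:57626646-57653631, minus) on chromosome 9. Ptpn6 is at chr6:124720707-124738709 (minus), Ptprc at chr1:138062859-138175756 (minus), Cblb at chr16:52031230-52208047 (plus), Ubash3a at chr17:31207868-31259681 (plus) and Ptpn2 on chromosome 18. These mm10 spans are those of the DP table and equal the RefSeq spans for all 10. The 2 members of chromosome 9, Csk and Cbl, changed in opposite directions in every comparison.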

How the data were processed

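Poly(A) RNA of sorted thymocytes was sequenced as paired reads, per the labels' protocols. The authors deposited raw read counts per gene in 2 tables, a DP one and a CD4 one of 6 libraries each. Subread 1.0.1, R 4.1.5, DESeq2 and the build mm10 appear in the submitters' processing notes without stated roles. The aligner and the strand setting were not given in the sources used here. Libraries were grouped by sample title. The deposited descriptions name the CD4 columns as DP, and these were assigned by title.

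The counts were tested with edgeR 4.0.16 in R 4.3.3 (quasi-likelihood test, TMM, default low-count filter, Benjamini-Hochberg adjustment over all genes tested, called under 0.05), over the 6 libraries of each comparison or, for the difference between KO effects, all 12. Standard errors are the log2 fold change over the square root of F. CPM used TMM over 12 libraries, and RPKM the exon bases of the DP table on the main chromosomes. For figures and tables, Python 3.11.15, pandas 2.3.3 and matplotlib 3.10.9 were used. Alternatives were DESeq2 1.42.0, limma 3.58.1 (voom), other filters, a replicate block, 1 model over all libraries, and leaving out libraries. The test was checked on simulated counts. No libraries were near-identical (chi-square per degree of freedom 13.8 to 45.8 within groups).

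The labels' batch number equals the replicate number, so the pairing comes from the labels. The deviations of same-numbered libraries had correlations of 0.0164 to 0.15 in DP, 0.0809 to 0.245 in CD4 and 0.0687 to 0.189 between WT stages. Differently numbered libraries had −0.124 to 0.107 in DP, −0.167 to 0.125 in CD4 and −0.150 to 0.050 between WT stages. The 2 ranges overlapped in DP and in CD4 but not between WT stages, so these values do not settle the pairing of every replicate. In each comparison the highest same-numbered value was that of replicate 3. The members and lists were chosen with earlier results of these data known. The genes named are all members, Satb1, up to 3 genes per list and comparison with the smallest adjusted p, the nearest profiles and markers where libraries stood apart. Of the genes this rule names, 2 are not reported here. Dusp4, Ubash3b and Gramd4 levels were set out after their values were seen.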

Additional observations from a re-analysis of the deposited data

Results flagged for a closer look

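The effect of the KO in CD4, with its effect in DP subtracted, passed the test of the difference for 6 members (edgeR interaction, log2 scale, 12 libraries). It was −0.445 for Ptprc, −0.851 for Ptpn2, 0.775 for Cbl, −0.426 for Ubash3a, −0.83 for Csk and −0.27 for Pag1. Ptpn2, Cbl and Csk changed in opposite directions at the 2 stages. The calls of Ptpn2 in CD4 and of Cbl and Csk in DP were lost under some alternatives, as set out below. Groups of 3 libraries are too small for the test of a single library far from the others.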

How the results depend on the processing

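Of 31 member differences that were called, 24 were called with the same direction under every alternative tried. The other 7 were Ptpn22, Ptpn6, Cbl, Ubash3a and Csk in DP, Ptpn2 in CD4, and the Pag1 difference between KO effects. Over all 31 the call was lost in 29 of 454 alternatives, every loss among these 7, and none of the 31 reversed. Most losses were those of Ubash3a in DP (7 of its 14 alternatives), Ptpn2 in CD4 (6 of 13) and the Pag1 difference (10 of 19). The cause was not tested. Leaving out DP WT replicates 1 and 2 reduced the members higher in DP KO from 3 to 1, those lower from 4 to 1, all genes called in DP from 5167 to 1907, and those called for the difference between KO effects from 5116 to 3341. That alternative has fewer samples. Leaving out single libraries gave 2 to 4 members called lower in DP KO, with 2 without DP KO replicate 2 or DP WT replicate 2. It gave 1 to 2 members with a KO effect called higher in CD4 than in DP, with 2 without CD4 WT replicate 3. With the replicate block there were 2 such members, as Ptpn22 was added, and the pairing changed no other member call.

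Reversals were found only for differences that were not called. For Ptprc in DP KO the value was 0.00 with limma-voom (0.000359), 0.04 with no low-count filter (0.0426) and 1.8e-05 with the replicate block, and −0.0499 to 0.0235 without single libraries. For Pag1 in DP KO it was −0.0203 with DESeq2 size factors, −0.00345 with the DESeq2 Wald test, −0.00385 with a mean count of at least 10, −0.0112 with 1 model over all 12 libraries, −0.113 without DP WT replicates 1 and 2, and −0.0423 to 0.0559 without single libraries. Without single libraries, Cblb in DP KO ran from −0.195 to 0.018, Ptpn22 between WT stages from −0.124 to 0.0384 (0.0322 with no low-count filter), and the Ptpn6 difference between KO effects from −0.184 to 0.0552. Depth was far from limiting for the members: the lowest level, 32.3 CPM of Cblb in DP WT replicate 2, compares with limits of detection of 0.0464 to 0.134 CPM.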
